A study of Mus musculus with 6 samples.

Results

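The 10 genes described here are used to recognise fibroblasts and pericytes: Pdgfra, Pdgfrb, Dcn, Lum, Thy1, Cspg4, Rgs5, Vim, Pdpn and Cd34. Their chromatin accessibility was read in ATAC-seq libraries of primary oviductal muscle cells, as a description of which cells a library held and of the state of the culture. A region belonged to a gene when it overlapped the gene body or the 10 kb on either side of it, called the window below. Of the 66679 regions in the merged lists of reproducible peaks of the 2 genotypes, 50 lay in the windows of the 10 genes, and the series covered 21924 protein-coding genes in all. The genes are given by symbol and were chosen with earlier results of these data known. The regions are those called as peaks in these same libraries.

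The libraries came from female mice aged 8 to 12 weeks on day 2 of pregnancy, 3 labelled WT and 3 labelled Pbrm1 cKO. Pbrm1 cKO mice lack Pbrm1, a subunit of the chromatin remodelling complex SWI/SNF, in cells that express Cre recombinase. The labels do not name the Cre. The paper, which is mainly about uterine stroma, describes Cre driven from the progesterone receptor locus and controls with floxed Pbrm1 alleles without Cre, and this line was taken to hold for the oviduct libraries. Deletion would then follow progesterone receptor expression rather than a muscle gene. Both groups shared the pregnancy by mating, the enzymatic digestion of whole oviduct pieces and the hours on culture plastic in serum, and the cells were filtered and plated but not sorted by a marker. How many mice went into a library was not given in the sources used here, so p-values measure the spread between these libraries only.

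Fibroblasts lay down the collagen and proteoglycan matrix of the stroma, and pericytes wrap capillaries under the endothelium. Both are mesenchymal cells that carry receptors for platelet-derived growth factor, and in the oviduct wall they lie beside the smooth muscle that moves the embryo. An accessible region is a stretch of DNA that the Tn5 transposase can enter. A region near a gene's start or in its introns is read as potential regulatory DNA, but it does not measure the gene's RNA.

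The 6 sequences below are those on which the results turn. The promoter of Vim had the strongest region of the 10 genes at a gene's start, and that of Rgs5 is 1 of 3 that had none. The promoter of Pdpn is set beside the strongest region of the whole group, which lay in an intron of that gene. The 2 Thy1 sequences are the strongest region of its window and the region with the smallest p-value in the genotype comparison. Promoters are RefSeq sequences of 300 bases on GRCm38.p6, each ending 50 bases past a start, for which 6 of the 10 genes had an entry (Pdgfra, Cspg4, Rgs5, Vim, Pdpn and Cd34); the others are the middle 300 bases of a region on the plus strand of the same build. Capitals mark matches on either strand to the TATA box (TATAAA), the CCAAT box (CCAAT), the GC box (GGGCGG), the AP-1 motif (TGANTCA), the TEAD motif (GGAATG) or the CArG box.
Vim promoter, chr2:13574061-13574360, plus strand: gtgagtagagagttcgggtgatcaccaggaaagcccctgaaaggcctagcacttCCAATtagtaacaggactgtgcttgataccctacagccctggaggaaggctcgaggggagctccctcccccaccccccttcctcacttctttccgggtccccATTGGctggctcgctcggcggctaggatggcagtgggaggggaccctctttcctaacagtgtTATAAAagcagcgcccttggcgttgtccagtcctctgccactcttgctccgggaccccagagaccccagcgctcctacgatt
Rgs5 promoter, chr1:169655251-169655550, plus strand: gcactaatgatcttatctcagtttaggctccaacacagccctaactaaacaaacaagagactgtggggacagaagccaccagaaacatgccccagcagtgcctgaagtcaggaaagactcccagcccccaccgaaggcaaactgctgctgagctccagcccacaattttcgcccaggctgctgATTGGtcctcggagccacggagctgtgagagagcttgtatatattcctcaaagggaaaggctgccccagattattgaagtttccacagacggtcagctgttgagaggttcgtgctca
Pdpn promoter, chr4:143299515-143299814, minus strand: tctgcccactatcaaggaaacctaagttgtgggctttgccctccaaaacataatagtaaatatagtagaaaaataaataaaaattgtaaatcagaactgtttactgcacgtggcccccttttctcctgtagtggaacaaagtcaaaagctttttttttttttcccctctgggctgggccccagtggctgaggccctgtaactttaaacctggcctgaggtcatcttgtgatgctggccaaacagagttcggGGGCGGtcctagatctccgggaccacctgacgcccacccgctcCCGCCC
Pdpn intron, chr4:143278572-143278871: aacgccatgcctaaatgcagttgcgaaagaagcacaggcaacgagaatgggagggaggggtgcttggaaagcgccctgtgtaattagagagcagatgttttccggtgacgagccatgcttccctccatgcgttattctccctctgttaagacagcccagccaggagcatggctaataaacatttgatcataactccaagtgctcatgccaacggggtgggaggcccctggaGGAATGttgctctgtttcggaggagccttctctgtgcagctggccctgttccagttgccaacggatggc
Thy1 upstream, chr9:44039846-44040145: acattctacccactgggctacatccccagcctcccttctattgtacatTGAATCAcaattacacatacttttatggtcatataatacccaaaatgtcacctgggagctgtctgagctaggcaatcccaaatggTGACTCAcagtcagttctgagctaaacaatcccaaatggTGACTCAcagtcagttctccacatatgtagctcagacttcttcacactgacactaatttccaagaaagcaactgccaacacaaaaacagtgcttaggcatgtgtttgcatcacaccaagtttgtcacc
Thy1 downstream, chr9:44048730-44049029: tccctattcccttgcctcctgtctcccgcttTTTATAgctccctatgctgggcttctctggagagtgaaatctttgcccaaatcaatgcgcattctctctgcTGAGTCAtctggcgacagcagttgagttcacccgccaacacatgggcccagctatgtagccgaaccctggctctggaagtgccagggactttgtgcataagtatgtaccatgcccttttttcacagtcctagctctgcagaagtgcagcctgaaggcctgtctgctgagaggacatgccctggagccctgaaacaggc

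The Vim promoter held a TATA box and 2 CCAAT boxes, and the Rgs5 promoter held 1 CCAAT box. The Pdpn promoter held 2 GC boxes and neither of the other 2 boxes. Of the 6 promoters, 1 held a TATA box, 2 a CCAAT box and 2 a GC box, while 13.6%, 37.4% and 35.7% of the 32851 promoters in the table did. None of the 6 held the AP-1 motif, which 7.81% of all promoters held. CpG dinucleotides stood at 0.421 of the number that base composition gives in the Vim promoter and at 0.294 in that of Rgs5, with a median of 0.384 over all promoters. Over the middle 300 bases of the 50 regions, 21 held the AP-1 motif, the site of the Fos and Jun factors, a share of 42% where all 66679 regions gave 33.5%. The CCAAT box was in 23 of the 50, or 46%, against 31.1% of all regions, and the GC box in 6, or 12%, against 21.9%. The TEAD motif was in 9 of the 50, or 18%, against 20.4%. None of the 50 held a CArG box, the site of serum response factor at muscle genes, which was in 1.62% of all regions. The Thy1 upstream sequence held 3 AP-1 motifs, the most of the 50. These matches are descriptions of letters and were not tested.

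All 10 genes had at least 1 region in their window, as did 77.7% of protein-coding genes. Pdgfrb had the most with 10, followed by Pdgfra and Pdpn with 7 each, Cspg4 and Cd34 with 6 each, Dcn and Thy1 with 4 each, Rgs5 with 3, Vim with 2 and Lum with 1. Windows differ in length, from 25.2 kb at Thy1 to 65.9 kb at Pdgfra. Per 10 kb of window the genes ran from 0.363 regions at Lum to 1.67 at Pdgfrb and 1.59 at Thy1. The median was 1.08 for the 10 genes and 0.446 for all protein-coding genes. Of the 50 regions, 7 lay within 1 kb of the gene's 5′ end, 4 near another annotated start of the same gene, 7 over other exons, 14 in introns, 7 upstream and 11 downstream. The median length was 438.5 bp, with a range from 175 to 1268 bp, and the median of all regions was 481 bp. In all, 49 of the 50 regions had an entry in every library, where 93.5% of all regions did.

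**Figure D1:**
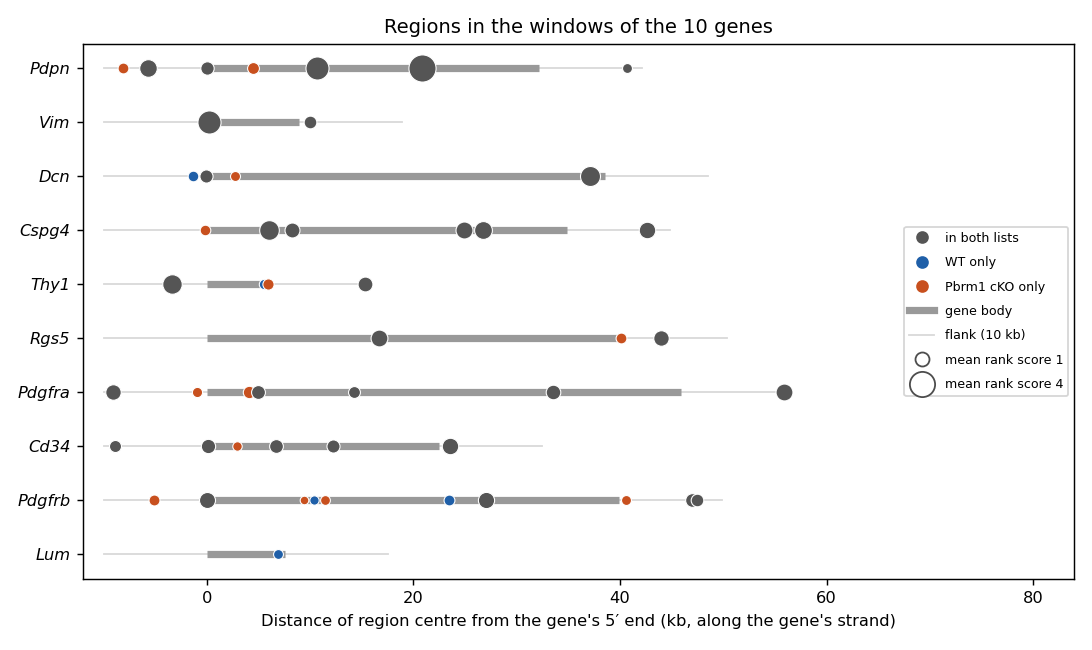
Regions in the windows of the 10 genes by distance of the region's centre from the gene's 5′ end in kb along the strand; each point is a region, its area grows with the mean rank score over 6 libraries, and its colour gives the genotype lists that hold it. The strongest point of 9 genes lies away from the 5′ end, with Vim as the exception. The largest points are the Vim start and the Pdpn intron regions 20.8 and 10.7 kb inside the gene.

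The level of a region is given as its rank among the 66679 regions of a library by the highest −log10 p among its peak entries, with 1 as the strongest, and rank scores are log2 of 66679 over the rank, so that a rise of 1 stands for a halved rank number. Pdpn, which encodes podoplanin, a membrane glycoprotein of reticular fibroblasts, lymphatic endothelium and mesothelium, had the strongest region. It lay in an intron 20.8 kb inside the gene at chr4:143278375-143279068. It ranked 2371, 1005 and 4776 in WT libraries 1, 2 and 3 and 2242, 3475 and 3233 in Pbrm1 cKO libraries 1, 2 and 3, where both groups overlapped. Another Pdpn intron region, 10.7 kb inside the gene, ranked 9742, 5668 and 7010 in WT and 5798, 5517 and 7894 in Pbrm1 cKO. The start of Pdpn was weaker than both in every library, at ranks from 29667 to 48948.

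Vim encodes vimentin, the intermediate filament of mesenchymal cells, which also rises in many cell types in culture. The region over its start, chr2:13573487-13574754, covered exon and 5′ flank and ranked 6883, 5442 and 5472 in WT and 6550, 7257 and 9342 in Pbrm1 cKO. It rested on 110, 105 and 68 tags at the summit in WT and 124, 108 and 98 in Pbrm1 cKO. Vim was the 1 gene of the 10 whose strongest region by mean score lay at its 5′ end.

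The order of the 10 genes by the mean score of the best region in each window was Pdpn, Vim, Dcn, Cspg4, Thy1, Rgs5, Pdgfra, Cd34, Pdgfrb and Lum. The lowest, median and highest rank of the best region over the 6 libraries were 1005, 2802 and 4776 for Pdpn and 5442, 6717 and 9342 for Vim, which did not overlap. From Vim to Pdgfrb every neighbour in the order overlapped the next in its 6 library values, so that the order of neighbours is not resolved. Genes further apart could be separate: the values of Vim ended at 9342 and those of Cspg4 began at 10890. Lum stood apart at 38606, 56564 and 63012, beyond the highest rank of Pdgfrb at 26893. The median of the mean best rank was 7131 for the 17040 protein-coding genes with a region in the window, and 2 of the 10 genes, Pdpn and Vim, had a mean best score above the median of those genes. By mean best score 1.77% of those genes stood at or below Lum, 16.8% at or below Pdgfrb, 31.0% at or below Dcn and 77.2% at or below Pdpn.

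**Figure D2:**
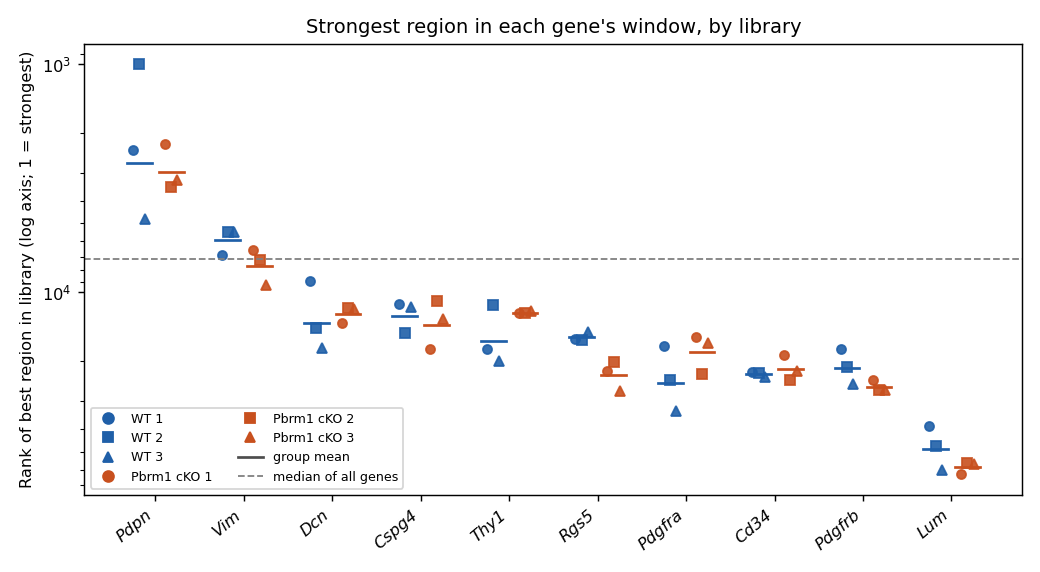
Rank of the strongest region in each gene's window in each of the 6 libraries on an inverted log axis, with lines for the means of the 3 libraries of a group and a dashed line at the median of all genes (7131). Pdpn and Vim sit at ranks from 1005 to 9342, Lum at 38606 or beyond, and the 2 genotypes overlap for every gene except Rgs5.

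The matrix genes of the fibroblast differed from each other. Dcn encodes decorin, a proteoglycan that binds collagen fibrils, and its strongest region lay in an intron 37.1 kb from the start, at chr10:97516509-97516916, with ranks of 8980, 14307 and 17587 in WT and 13711, 11731 and 11809 in Pbrm1 cKO. The start of Dcn ranked lower, at 54942, 45249 and 27746 in WT and 30344, 34512 and 35972 in Pbrm1 cKO. Lum encodes lumican, a related proteoglycan whose gene neighbours Dcn on chromosome 10. Its window held 1 region, over an exon with untranslated sequence 6.92 kb from the start, at ranks 38606, 47520 and 59997 in WT and 63012, 56326 and 56802 in Pbrm1 cKO. That region was in the WT list alone and rested on 6 to 20 tags, among the lowest of the group.

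The receptors for platelet-derived growth factor had many regions of middling rank. Pdgfrb, the receptor of pericytes and other mural cells, had a region over its 5′ end at chr18:61044784-61045570 with ranks of 19951, 21224 and 25291 in WT and 24552, 27429 and 34085 in Pbrm1 cKO. Pdgfra, the receptor of fibroblasts, had no region over the start itself. The nearest, chr5:75151216-75151402, was centred 983 bp upstream, was in the Pbrm1 cKO list alone, and ranked 61796, 60270 and 58649 in WT and 41502, 53193 and 38354 in Pbrm1 cKO. The strongest Pdgfra region lay 55.9 kb from the start, downstream of the gene, at ranks from 15706 to 35550. The rule for a promoter region took any annotated start of the gene, and at Pdgfra it named chr5:75157179-75157359, next to an internal start 4.98 kb inside the gene, with ranks of 25864, 41179 and 38311 in WT and 30026, 40122 and 31117 in Pbrm1 cKO.

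Among the pericyte genes, Cspg4 encodes the proteoglycan NG2 and had its strongest region in an intron 6.05 kb from the start, chr9:56870639-56871527, at ranks 11274, 15076 and 12131 in WT and 21313, 10890 and 13084 in Pbrm1 cKO. The region at the start of Cspg4 ranked from 38065 to 59978, was in the Pbrm1 cKO list alone, and also lay over the start of the neighbouring gene Odf3l1, so that it cannot be assigned to either gene. Rgs5, which encodes a regulator of G protein signalling used as a pericyte marker, had no region within 1 kb of its 5′ end. Its intron region 16.7 kb inside the gene ranked 15998, 24768 and 14947 in WT and 34196, 20205 and 27136 in Pbrm1 cKO.

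Thy1 and Cd34 are surface glycoproteins of stromal cells, and both also occur outside fibroblasts, Thy1 on T cells and neurons and Cd34 on endothelium and haematopoietic progenitors. The strongest Thy1 region lay 3.39 kb upstream of the gene, chr9:44039689-44040302, nearer to the start of the gene model Gm39323, at ranks 17828, 11352 and 20114 in WT and 12326, 12409 and 12147 in Pbrm1 cKO. Thy1 had no region at its 5′ end. The region over the start of Cd34, chr1:194938621-194939206, ranked 30453, 22710 and 27340 in WT and 49605, 41761 and 26992 in Pbrm1 cKO, and the 2 groups overlapped through Pbrm1 cKO library 3. The strongest Cd34 region by mean score lay 23.6 kb from the start, beyond the 3′ end, at ranks from 18837 to 30388.

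A region within 1 kb of the 5′ end was present at 7 of the 10 genes and at 57.9% of all protein-coding genes. For Lum, Thy1 and Rgs5, which had none, the relaxed lists of the single libraries were read at the same place. At Lum every library listed an entry, with 14, 9 and 10 tags at the best summit in WT and 11, 12 and 12 in Pbrm1 cKO. At Thy1 every library also listed an entry, with 10 tags in each WT library and 9, 8 and 9 in Pbrm1 cKO. At Rgs5 WT libraries 1 and 2 listed entries of 8 and 6 tags, and WT library 3 and the 3 Pbrm1 cKO libraries listed none. Among the 201228 to 241237 distinct intervals of a library, the best entry stood between 53970 and 104012 at Lum and between 68312 and 174794 at Thy1, and at Rgs5 the 2 entries stood at 132098 and 169236. A start without an entry is below the floor of the list and not shown to be closed.

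The cells were labelled as muscle, so the marker lists of other cell types were read in the same way. All 5 smooth muscle genes (Acta2, Myh11, Cnn1, Tagln and Des) had a region within 1 kb of the 5′ end, with mean ranks over the 6 libraries from 18570 at Tagln to 46897 at Cnn1. The strongest region of the Cnn1 window, at a mean rank of 4214, lay elsewhere. Of the 5 endothelial genes 3 did, Pecam1, Kdr and Tek, at mean ranks of 35090, 21012 and 28962. Of the 4 mesothelial genes 2 did, Wt1 and Krt19, at mean ranks of 8373.5 and 26685. Of the 7 epithelial genes 1 did, Foxj1, a regulator of cilia, at a mean rank of 4389, while Epcam and Ovgp1 had no region in the window at all. Of the 5 immune genes 1 did, Cd68, at a mean rank of 22592 (the strongest region of its window, at 2303, lay elsewhere), and Adgre1 had none in the window. None of the 3 neural and glial genes did. By this count the 10 fibroblast and pericyte genes, with 7 of 10, lay between the smooth muscle list and the others. The lists are short and this order was not tested. Among the 7 are Pdgfra, whose region was centred 983 bp upstream, and Cspg4, whose region also lay over the start of Odf3l1. Of all protein-coding genes 57.9% had a region within 1 kb of the 5′ end. The median of the mean best rank gave another order. It was 14490 for the mesothelial, 16679 for the endothelial, 16902 for the 10 genes and 18570 for the smooth muscle list. The epithelial, neural and glial, and immune lists stood at 20286, 33119 and 40084. In bulk libraries, few cells with an open site and many cells with a weakly open one cannot be told apart, so these counts and ranks give no cell shares.

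**Figure D3:**
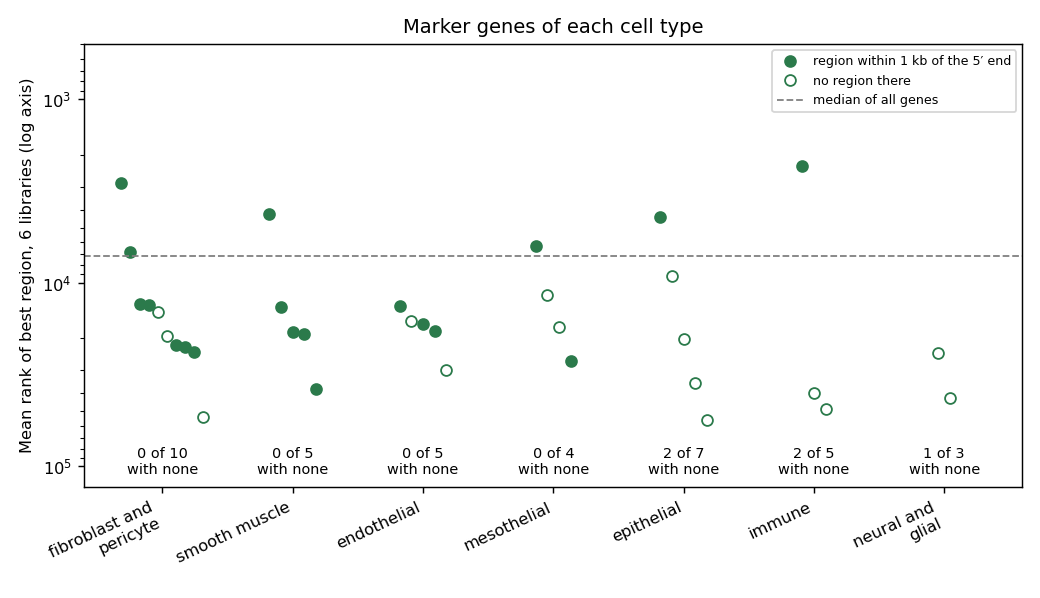
Mean rank over the 6 libraries of the strongest region in each marker gene's window, on an inverted log axis, by cell type; filled points have a region within 1 kb of the 5′ end, and the numbers below count the genes with no region in the window. The 5 smooth muscle genes are all filled, 7 of the 10 fibroblast and pericyte genes are, and 1 of 7 epithelial genes is.

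The summed best score of the 10 genes ran from 19.8 to 23.8 in WT and from 20.9 to 21.9 in Pbrm1 cKO libraries, so that the groups overlapped. The sum of the 7 fibroblast members overlapped too, from 13.7 to 17.9 and from 15.6 to 17.0, and 21 of their regions had a higher and 10 a lower mean score in Pbrm1 cKO. The sum of Pdgfrb, Cspg4 and Rgs5, the 3 pericyte or mural members, ran from 5.84 to 6.53 in WT and from 4.95 to 5.65 in Pbrm1 cKO without overlap, and 7 of their regions were higher and 12 lower. That of the smooth muscle list ran from 9.73 to 11.5 and from 10.7 to 11.7, with overlap. The endothelial sum ran from 10.1 to 10.8 in WT and from 8.11 to 9.61 in Pbrm1 cKO, and the mesothelial sum from 9.83 to 12.2 and from 7.47 to 9.46, so that in these lists too the groups did not overlap. The epithelial sum overlapped, from 8.99 to 11.2 in WT and from 8.77 to 11.4 in Pbrm1 cKO. The sum of the 16 further fibroblast genes described next ran from 34.9 to 36.5 in WT and from 30.9 to 33.2 in Pbrm1 cKO, again without overlap. That of the 10 further pericyte genes ran from 17.296 to 19.6 and from 16.0 to 17.302, which narrowly overlapped. The sum of the 4 growth factor ligand genes overlapped, from 8.17 to 9.35 and from 7.75 to 9.25. So did that of the 6 genes raised in culture, from 19.2 to 22.7 and from 21.1 to 24.1. The immune sum ran from 5.70 to 7.33 and from 5.57 to 5.76, and the neural and glial sum from 2.11 to 2.61 and from 1.79 to 2.33, both with overlap. For single genes, the best regions of the 2 groups did not overlap at 13.7% of 17040 genes, and the share over sums of other gene lists was not computed. The largest log2 difference of a best region was that of Emcn, −1.23, in the endothelial sum and that of Rgs5, −0.55, in the pericyte or mural sum. No region of any of these lists passed the threshold of the genotype comparison given next. Their part in the values of the 10 genes was not tested.

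Other genes of the same cells were read in the same windows. Of 16 further fibroblast genes all had a region in the window and 11 had one at the 5′ end. By mean rank at the 5′ end S100a4 at 6101, Fn1 at 7728 and Gsn at 11543 were the strongest, and Prrx1 at 47074, Tcf21 at 29529 and Fap at 29407 the weakest. Of 10 further pericyte genes 9 had a region in the window and 4 at the 5′ end, where Vtn at 9319 was the strongest and Abcc9 at 44926 the weakest, and Higd1b had no region. All 4 genes of the growth factor ligands had a region, and Pdgfa, Pdgfc and Pdgfd had one at the 5′ end, at mean ranks of 18635, 26946 and 17266. Of 6 genes that smooth muscle cells are known to raise in culture, Myh10, a nonmuscle myosin, stood at 1069 and Klf4, a regulator of the dedifferentiated state, at 8623 at the 5′ end, where Vim stood at 6824 and no other of the 10 genes was ahead of 25422. Tpm4 and Mgp stood at 21011 and 31375, and Spp1 and Lgals3 had no region there. The strongest region of the window stood at a mean rank of 416 for Tpm4, 1069 for Myh10 and 8623 for Klf4. For Lgals3, Mgp and Spp1 it stood at 10037.5, 29175 and 38794. Of the 79 regions of the further fibroblast genes, 31 were higher and 48 lower in Pbrm1 cKO, and of the 28 regions of the further pericyte genes 11 were higher and 17 lower, and none passed the threshold.

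To ask whether loss of Pbrm1 changed accessibility at the 10 genes, the rank scores of all 66679 regions were compared between genotypes with limma, with Benjamini-Hochberg adjustment over all regions. None of the 50 regions passed an adjusted p of 0.05, and the smallest was 0.143. Of all regions 46 passed, or 0.069%, 26 higher and 20 lower in Pbrm1 cKO. At an unadjusted p under 0.05 there were 4 of the 50 regions, or 8%, against 15.9% of all regions, and limma on normal scores also called 0 of the 50, with a smallest adjusted p of 0.136, where it called 1552 of all regions, or 2.33%. In all, 28 regions had a higher and 22 a lower mean score in Pbrm1 cKO, with differences from −0.55 to 0.57 and a median SE of 0.29 on the log2 scale. The median difference was 0.03 over the 50 regions and 0.00 over all regions.

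The libraries of the 2 genotypes did not overlap at 8 of the 50 regions, or 16%, while this held for 21.4% of all regions, so that the share is no more than the background. Of the 8, the scores were higher in Pbrm1 cKO at 7. Pdgfra had 3 of the 8 and Pdgfrb 2, and Dcn, Cd34 and Thy1 had 1 each. The Dcn region and both Pdgfrb regions were in the Pbrm1 cKO list alone. So were the Pdgfra regions 983 bp upstream of the start and 4.08 kb inside the gene. The Thy1 region was in the WT list alone. Such regions entered the 50 only through the genotype in which they scored high, so their directions give no support. The split of directions over all regions without overlap was not computed. At Pdgfrb, the region 40.6 kb from the start, 519 bases past the 3′ end at chr18:61085581-61085963, ranked 63038, 62067 and 66679 in WT, where WT library 3 had no entry, and 29937, 45315 and 60299 in Pbrm1 cKO (log2 difference 0.56 ± 0.20 SE, limma adjusted p = 0.187). At Cd34, a region 12.2 kb inside the gene over an exon, chr1:194950835-194951282, ranked 48267, 37418 and 51847 in WT and 36526, 28866 and 27316 in Pbrm1 cKO (0.57 ± 0.28, limma adjusted p = 0.324). At Pdgfra the region 983 bp upstream of the start differed by 0.46 ± 0.17 (limma adjusted p = 0.197). Another Pdgfra region, 33.5 kb inside the gene, ranked 30411, 45214 and 38219 in WT and 26203, 23222 and 26391 in Pbrm1 cKO (0.57 ± 0.30, limma adjusted p = 0.373). The remaining ones, 4.08 kb inside Pdgfra and 11.4 kb inside Pdgfrb, differed by 0.51 ± 0.26 and 0.30 ± 0.15. At Dcn a region 2.70 kb inside the gene, over another annotated start of the gene, ranked 56347, 60792 and 61284 in WT and 49643, 37441 and 53674 in Pbrm1 cKO (0.36 ± 0.16, limma adjusted p = 0.298). WT library 3 was the shallowest, with a median of 16 tags over the 50 regions where the other libraries had 23 to 32, and without it the differences were 0.53 at the Pdgfrb region 40.6 kb from the start, 0.47 at Cd34, 0.47 at the Pdgfra region upstream of the start, 0.34 at Dcn and −0.57 at the Thy1 region described next. Other libraries mattered more: the Pdgfrb difference was 0.29 without Pbrm1 cKO library 1, and that at Dcn 0.20 without Pbrm1 cKO library 2. With ranks by fold enrichment the Pdgfra region upstream of the start differed by 0.14 and the Dcn region by 0.20.

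The 1 region of the 8 that was lower in every Pbrm1 cKO library than in any WT library lay 132 bases beyond the 3′ end of Thy1. At chr9:44048712-44049048, whose middle is the Thy1 downstream sequence printed above with 1 AP-1 motif, ranks were 42088, 39655 and 45049 in WT and 59120, 61905 and 60436 in Pbrm1 cKO. Tags at the summit numbered 21, 21 and 10 in WT and 14, 11 and 11 in Pbrm1 cKO, which overlap. The difference was −0.52 ± 0.16, the smallest p of the 50 regions (limma adjusted p = 0.143). The region was in the WT list alone. A separate region 116 bases further on, in the Pbrm1 cKO list alone, ranked 58842, 30163 and 54014 in WT and 58473, 39175 and 44536 in Pbrm1 cKO, and did not differ beyond the spread of the libraries (−0.03 ± 0.25).

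**Figure D4:**
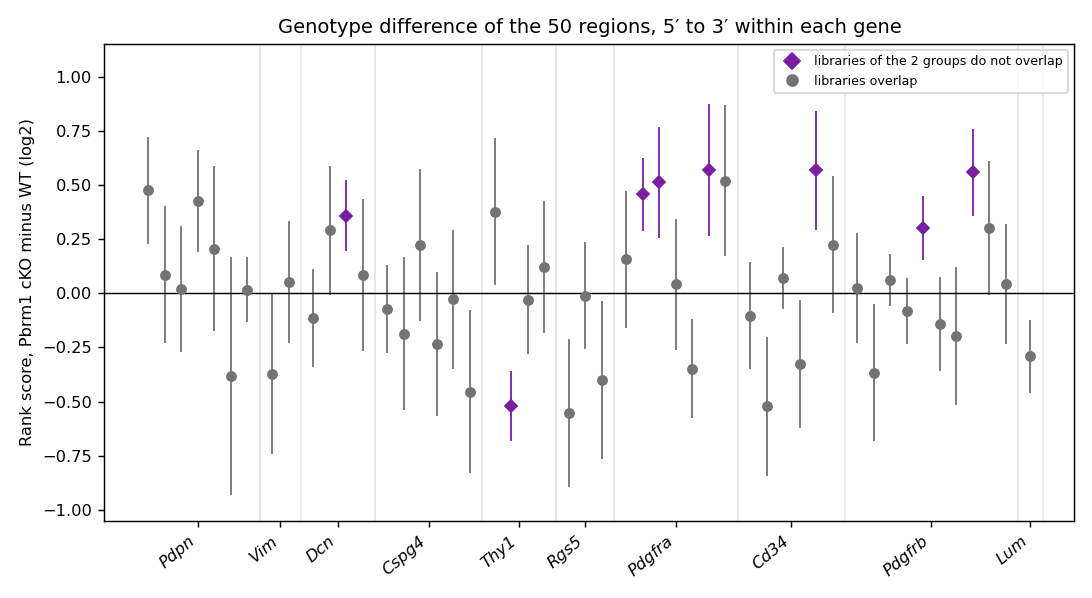
Difference in rank score between Pbrm1 cKO and WT (log2, error bars are the SE from limma) for the 50 regions, ordered from 5′ to 3′ within each gene; diamonds mark the 8 regions at which the libraries of the 2 groups do not overlap. The points lie between −0.55 and 0.57, 7 of the 8 diamonds lie above 0 and the diamond of Thy1 lies below. Most diamonds are regions listed in the higher genotype alone, so their side of 0 is not independent of the listing.

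The remaining regions named by the rule overlapped between genotypes. At the start of Vim the difference was −0.37 ± 0.37 and the limma adjusted p was 0.672. At the start of Cd34 the difference was −0.52 ± 0.32 with a limma adjusted p of 0.445. At the start of Pdgfrb it was −0.37 ± 0.31, at that of Dcn 0.29 ± 0.30 and at that of Pdpn 0.02 ± 0.29. At Rgs5 the intron region differed by −0.55 ± 0.34, at Lum the single region by −0.29 ± 0.17, at Cspg4 the region 42.7 kb from the start by −0.45 ± 0.38, and at Pdpn the region 8.12 kb upstream by 0.47 ± 0.25, with adjusted p-values from 0.363 to 0.599. Many of these values rested on 1 library. Without WT library 3 the Cspg4 region 42.7 kb from the start differed by −0.07, and without Pbrm1 cKO library 1 by −0.21. The Pdpn region differed by 0.14 without Pbrm1 cKO library 2, the Lum region by −0.14 without WT library 1, and the start of Dcn by 0.08 without WT library 1 and 0.57 without WT library 3. The start of Cd34 differed by −0.33 without Pbrm1 cKO library 1, and without Pbrm1 cKO library 3 the starts of Vim and Pdgfrb differed by −0.23 and −0.24. At the internal start of Pdgfra the difference was 0.04 ± 0.30 and at the start of Cspg4 −0.07 ± 0.20.

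Presence in the pooled lists, which come from the same libraries, was also read. Of the 50 regions 32 were in both lists, 5 were in the WT list alone and 13 in the Pbrm1 cKO list alone. The shares were 10% and 26%, and over all regions 13.4% were WT only and 17.4% Pbrm1 cKO only. There was 1 pooled list per genotype, so these shares have no replicate error and were not tested. The WT-only regions were 2 at Pdgfrb and 1 each at Dcn, Lum and Thy1, and of the Pbrm1 cKO-only regions 4 were at Pdgfrb and 2 each at Pdgfra and Pdpn. These were weak regions: the median of the mean rank score was 0.42 for the 18 regions in 1 list and 1.30 for the 32 in both. Of the 18, 17 had an entry in the relaxed list of every library, so being listed in 1 genotype did not mean that the other genotype lacked a peak. All 5 WT-only regions had a lower and 10 of the 13 Pbrm1 cKO-only regions a higher mean score in Pbrm1 cKO. The lists and the scores come from the same libraries, so these directions largely follow from the listing and give no separate support.

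Taking the best region of a window as 1 value per gene, none of the 10 genes passed the threshold over 17040 genes (limma, smallest adjusted p = 0.598), and 18 genes or 0.106% did. Rgs5 was the 1 gene of the 10 with an unadjusted p under 0.05. The share of all 17040 genes under that value is not given here, so this count has no background beside it. Its best region ranked 15998, 16161 and 14947 in WT and 22209, 20205 and 27136 in Pbrm1 cKO, so that every Pbrm1 cKO library lay below every WT library, as groups did not overlap for 13.7% of the 17040 genes in either direction. The difference was −0.55 ± 0.25 on the log2 scale (limma adjusted p = 0.598). The best region was not the same in every library: it was the intron region in WT libraries 1 and 3 and Pbrm1 cKO libraries 2 and 3, and the region downstream of the gene in the other 2. For the other 9 genes the best ranks of the 2 groups overlapped.

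Counting every interval of the relaxed lists in a window called none of the 10 genes either. The 10 windows held 137, 133 and 122 intervals in WT and 123, 131 and 145 in Pbrm1 cKO libraries, or 50.6 to 67.7 and 61.1 to 70.6 per 100000 intervals of the library. None of the 10 genes passed the threshold over 21924 genes (limma on log2 of the count plus 1, smallest adjusted p = 0.636), and 28 genes or 0.128% did, of which 25 had the same count in the 3 libraries of each group. Rgs5 had 10, 10 and 8 intervals in WT and 7, 8 and 7 in Pbrm1 cKO (−0.31 ± 0.11, limma adjusted p = 0.636). It was the 1 gene of the 10 with an unadjusted p under 0.05, and the share of all 21924 genes under that value is not given here. Lum had 5, 6 and 6 in WT and 8, 8 and 6 in Pbrm1 cKO, which overlap. At Pdgfra the counts of 25, 19 and 19 in WT and 16, 22 and 24 in Pbrm1 cKO overlapped broadly. Within the Thy1 gene body alone each WT library listed 1 interval, of 10 tags, and no Pbrm1 cKO library listed any. With gene bodies as the windows Thy1 was the 1 gene of the 10 that passed, where 81 of all genes, or 0.369%, did. Those intervals lay at the 5′ end, across it in WT libraries 1 and 2 and just inside it in WT library 3. Within 1 kb of the 5′ end each WT library listed 2 intervals and each Pbrm1 cKO library 1, of 8 or 9 tags, upstream of the gene.

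**Figure D5:**
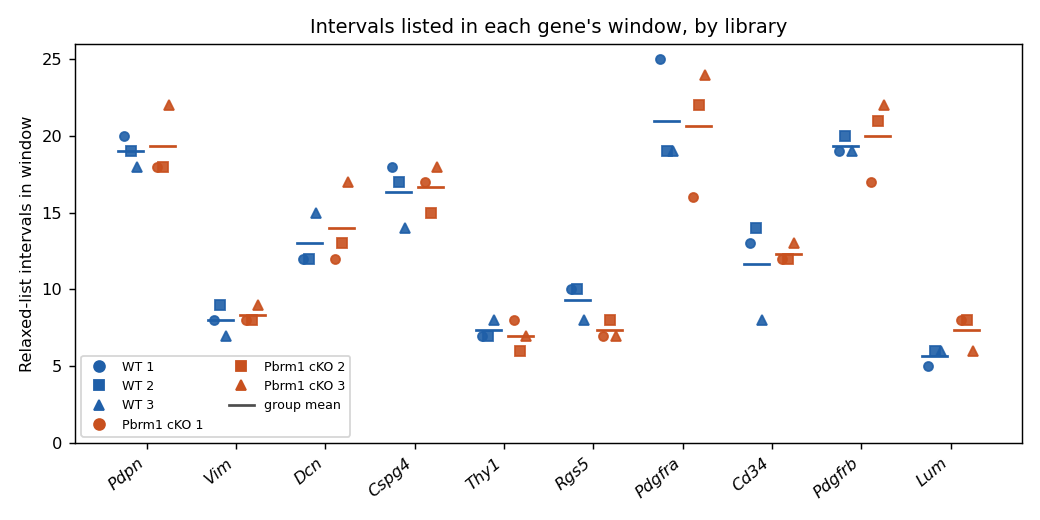
Number of relaxed-list intervals in each gene's window in each of the 6 libraries, with lines for group means of 3 libraries. Counts run from 5 at Lum to 25 at Pdgfra, and Rgs5, with 8 to 10 in WT and 7 or 8 in Pbrm1 cKO, shows the smallest unadjusted p of the 10 genes (limma adjusted p = 0.636).

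Across libraries, the relaxed lists held 298563 to 300000 entries with a median of 8 tags per summit in WT library 3 and 13 to 15 in the others, and pairs of libraries correlated at 0.876 to 0.926 in rank score over all regions (Pearson, regions are not independent replicates). The start of Pbrm1 itself ranked from 10526 to 22222 in all 6 libraries with both groups overlapping, which does not check the deletion, because an accessible start says nothing of the floxed exons.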

How the data were processed

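ATAC-seq peak lists of 6 libraries, 3 WT and 3 Pbrm1 cKO, were used. Per the processing notes and the paper's methods, which were written for uterine stroma and taken to hold here, the authors trimmed reads with cutadapt, aligned them with Bowtie2 to GRCm38 and called peaks with MACS2 in the ENCODE ATAC-seq pipeline. The authors deposited 1 relaxed list per library, cut off at p = 0.01 and at 300000 entries, and 1 conservative list per genotype at an irreproducible discovery rate of 0.05, whose values come from pooled libraries. Each entry carries the authors' fold enrichment over local background (a ratio), their −log10 p and −log10 q, and a deposited score that was not used. The authors compared genotypes on read counts, which were not used here since the lists hold none, so ranks took their place. A rank does not show a change shared by all regions, and total depth is unknown.

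The 2 conservative lists were merged into 66679 regions, ranked in each library by the best −log10 p. Regions lacking an entry took the last rank. Moderated linear models (limma 3.58.1, eBayes trend, under R 4.3.3) were fitted to log2(regions / rank) over all regions, to the best region of each gene, and to log2(distinct intervals + 1), two-sided, with Benjamini-Hochberg adjustment at 0.05, and were tested on simulated data. Counting of intervals took entries with the same coordinates once. Tags at a summit were solved from the fold and p, and 100% of entries gave a whole number within 0.1%. Genes and starts came from GENCODE M21 on GRCm38, and all regions lay within the chromosome lengths of the reference. For each gene the region within 1 kb of a start with the highest mean score and the region with the smallest p were named, and best ranks were given for all 10. Further genes were named as the 3 highest and 3 lowest at the 5′ end of their list, or where a region passed the threshold. The 10 genes and all lists were chosen with earlier results of these data known. Shared replicate numbers were checked for pairing: the deviations of same-numbered libraries correlated at −0.0028, −0.055 and 0.0093. Libraries were left unpaired in the main models, though so few libraries cannot exclude a shared preparation. Alternatives were normal scores, ranks by fold, other filters, gene bodies without the 10 kb, a replicate block and leaving out each library.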

Additional observations from a re-analysis of the deposited data

How the results depend on the processing

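None of the 50 regions passed the threshold in limma under any alternative run, and none of the 10 genes did by best region. The smallest adjusted p of a named region under any alternative was 0.122, without WT library 3. By interval count, 1 gene passed when the window was the gene body alone: Thy1, with 1 interval in every WT and 0 in every Pbrm1 cKO library, where counts identical within groups leave almost no fitted spread, and 81 of all genes passed in place of 28. The labels do not say whether equal replicate numbers mark a shared preparation. With a replicate block 0 of the 50 regions, 0 of the 10 genes by best region and 0 by interval count passed. Calls over all regions went from 46 to 130 and over all genes by best region from 18 to 45. Over all regions 1552 passed with normal scores, 7 with ranks by fold and 16 in the stronger 50% of each conservative list, and by best region 2 genes passed with ranks by fold. The median difference over the 50 regions, 0.032, turned to −0.030 with ranks by fold, −0.020 in gene bodies alone and −0.091 in the stronger 50% of each conservative list, so it has no stable direction. Leaving out each library in turn gave values from −0.01 to 0.06 for it, 0 called regions, and 0 called genes by both measures, while over all features these fits called 2 to 25 regions, 1 to 30 genes by best region and 31 to 99 by interval count, so the calls over all regions rest on every library. By covered bases 50 genes passed. With gene bodies alone there were 30 regions, 3 of them WT only and 8 Pbrm1 cKO only, and in the stronger 50% of each list 18, 1 and 2. Of 165 differences of the 16 named regions under alternatives, 9 turned sign, at 3 regions: the internal start of Pdgfra ran from −0.088 to 0.25 when each library was left out, the start of Cspg4 from −0.23 to 0.10, and the start of Pdpn from −0.20 to 0.17, and stood at −0.043 with ranks by fold. The lists limit the depth: WT library 3 had the fewest tags, and a region under a list's threshold is not shown to be closed.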
